A study of Homo sapiens with 6 samples.

Results

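Ion channel genes were examined in A549, an established cell line from a human lung adenocarcinoma, after 48 hours with 50 nM mitoxantrone, a topoisomerase II poison used as an anticancer drug, against 48 hours with DMSO, the solvent, at a 1/1000 dilution. Each group had 3 RNA sequencing libraries, and the line carried no other labelled modification. The genes were those of the authors' deposited table whose symbol begins with KCN, CACN, SCN, TRPC, TRPM, TRPV, CLCN, CLIC, ANO and a digit, P2RX, GABR or GRI, with 1 antisense gene left out. This gave 66 of the 4546 genes in the table. All 4546 had passed the authors' own threshold on these libraries, with an absolute log2 fold change of at least 1.00 and an adjusted p of at most 0.0497, so a channel gene outside the table is not listed, which does not mean unchanged.

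Ion channels are membrane proteins that let ions cross a membrane down their gradients. Potassium channels hold the resting potential negative, voltage-gated sodium and calcium channels carry depolarizing current, TRP channels are cation channels opened by chemical or physical stimuli, and ligand-gated channels open on binding glutamate, GABA or extracellular ATP. In epithelial and tumour cells the membrane potential and cell calcium that these channels set are linked to secretion, volume control and proliferation.

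Of the 66 genes, 50 encode pore-forming or channel proteins and 11 encode modifier or auxiliary subunits. The symbol rule also took in 5 genes that encode no channel subunit. These are GRIP2 and GRID2IP, scaffold proteins of glutamate receptors, GRINA, a membrane protein of the TMBIM family linked to cell survival, the pseudogene ANO7P1 and the transcript KCNH1-IT1, which lies within KCNH1. By family there were 26 potassium, 8 calcium, 4 sodium, 7 TRP, 6 chloride and 15 ligand-gated genes. No CLCN gene was listed.

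After mitoxantrone 54 of the 66 genes were higher and 12 were lower. Their median log2 fold change was 2.00, or 1.98 with the genes at 0 reads in DMSO set at their bound. Over all 4546 genes the share higher was 58.9%, the share lower 41.1% and the median 1.20. At an adjusted p of 0.05 the quasi-likelihood test of edgeR called every one of the 66, as it did 100% of the table, but since the authors had selected the genes on these libraries this is no independent evidence of change. In 65 of the 66 genes the 3 mitoxantrone libraries did not overlap the 3 DMSO libraries, against 98.3% of all listed genes, which is near the background. The exception was KCNMB4, an auxiliary subunit of the large-conductance calcium-activated potassium channel, with 1, 13 and 16 reads with mitoxantrone and 2, 2 and 5 with DMSO. Library totals, recovered from the deposited values and not counted, were about 16681380 to 19352443 reads with mitoxantrone and 20380674 to 21781220 with DMSO. In such bulk RNA, fewer cells that express a gene and less RNA per cell cannot be told apart.

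Channel genes were expressed at low levels. Their median FPKM, a read count scaled by gene length and library total, was 0.340 with mitoxantrone and 0.0883 with DMSO, where the medians of all listed genes were 1.08 and 1.19. A group mean of at least 1 FPKM was reached by 17 of the 66 genes with mitoxantrone and by 17 with DMSO, or 25.8% in each. Of all listed genes 51.8% reached it with mitoxantrone and 52.1% with DMSO. The mean normalized count (reads divided by the authors' size factors) over the 6 libraries was under 10 for 26 of the 66, or 39.4%, against 20.6% of all listed genes. In that low range 24 of the 26 were higher, and 83.9% of all listed genes of that range were higher too. With a mean of at least 10, 30 of 40 channel genes were higher, or 75%, beside 52.4% of all listed genes at that level. Among genes with a mean of at least 50 the split was 16 higher and 6 lower of 22 channel genes, or 72.7% higher, beside 45% of the 2622 listed genes at that level. With the 5 genes that encode no channel subunit left out, 50 were higher and 11 lower.

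**Figure D1:**
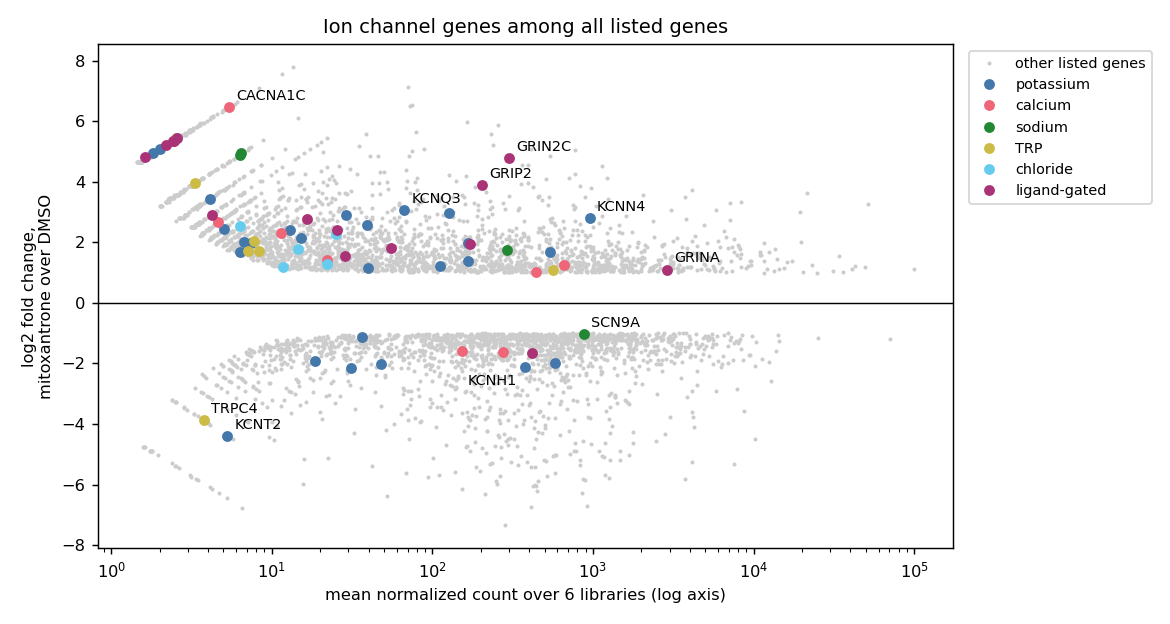
Log2 fold change, mitoxantrone over DMSO, against the mean normalized count over the 6 libraries (log axis) for all 4546 listed genes (grey) and the 66 ion channel genes (coloured by family). Coloured points lie mostly above 0, 54 against 12, and the empty band around 0 is the authors' selection of genes.

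The order of the levels differed between the groups. GRINA had the highest FPKM in both, 78.2 ± 5.56 with mitoxantrone and 38.8 ± 1.62 with DMSO (SD, n = 3 libraries each). Among channel subunits KCNN4 stood highest with mitoxantrone, at 25.5 ± 0.750 FPKM, well apart from TRPM4 at 5.83 ± 0.185. Lower in that order, CACNA1G (4.81 ± 0.200) and KCNAB2 (4.49 ± 0.426) did not differ beyond their spread. With DMSO the highest channel subunit was KCNH1, at 10.2 ± 1.32 FPKM, then KCNG1 at 7.83 ± 0.827 and SCN9A at 6.07 ± 0.943. All of these were lower with mitoxantrone. With DMSO the libraries of KCNG1 and SCN9A overlapped, with SCN9A at 7.13 in DMSO 1 and KCNG1 at 6.95 in DMSO 3. KCNN4 came next with DMSO, at 3.88 ± 0.517.

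Counts by family, here and below, stand beside the 58.9% of all listed genes that were higher. Potassium channel genes were 19 higher and 7 lower. The largest in reads was KCNN4 (ENSG00000104783), the intermediate-conductance calcium-activated channel that hyperpolarizes non-excitable cells. It had 1752, 1621 and 1641 normalized counts with mitoxantrone and 208, 239 and 271 with DMSO. Every mitoxantrone library was far above every DMSO library, a 6.98-fold difference (log2 fold change 2.80 ± 0.09 SE; edgeR, adjusted p = 3.7e-28). The deposited table places it on chromosome 19, from 44270685 to 44285409, without naming a build. The small-conductance relatives KCNN1 and KCNN3 were also higher. KCNN1 averaged 54.9 ± 10.3 normalized counts with mitoxantrone and 24.5 ± 5.46 with DMSO, and missed the threshold for a change beyond 2-fold (edgeR's glmTreat, adjusted p = 0.12). KCNN3 had 20 reads over the mitoxantrone libraries and 2 over the DMSO libraries, a 12.6-fold ratio (exact 95% interval 3.07 to 111.5).

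KCNQ3, a subunit of the M-current, had 110.1, 122 and 127 normalized counts with mitoxantrone and 15.4, 12.1 and 14.7 with DMSO (8.43-fold; edgeR, adjusted p = 1.9e-16). No library of either group came near the other.

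All 3 listed inward-rectifier genes were higher. KCNJ2, a strong inward rectifier, had 41.1, 65.5 and 47.9 normalized counts with mitoxantrone and 7.72, 9.29 and 3.45 with DMSO. KCNJ16, another subunit of this class, had 62.9, 65.5 and 73.5 with mitoxantrone and 15.4, 4.64 and 12.9 with DMSO. Their log2 fold changes were 2.91 for KCNJ2 and 2.58 for KCNJ16, from few reads in DMSO. They are neighbours on chromosome 17, with 33.1 kb between them, and KCNJ2-AS1, antisense to KCNJ2 and overlapping its exons, was higher as well (25 reads over the mitoxantrone libraries, 3 over the DMSO libraries), so part of the KCNJ2 reads may belong to it. KCNJ8, the pore of ATP-sensitive channels, averaged 21.9 ± 8.05 with mitoxantrone and 4.13 ± 0.614 with DMSO.

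The remaining higher potassium genes with ample reads were KCNAB2, a cytosolic beta subunit (827 ± 84.6 with mitoxantrone, 256 ± 16.7 with DMSO), KCNK6, of the background K2P family (267 ± 7.53 and 67.0 ± 1.68), KCNC4 (239.9 ± 29.3 and 92.3 ± 6.36) and KCND1 (155 ± 17.1 and 67.1 ± 8.201), voltage-gated channels of the A-type. All are normalized counts, mean ± SD over 3 libraries. They rose 2.30-fold to 3.97-fold. KCNA7 (log2 fold change 1.96), KCNE1 (1.68), KCNV1 (2.13) and KCNT1 (2.45) rose from means of under 6 counts in DMSO, and KCNA7 reached 3.61 without DMSO 2. For a change beyond 2-fold KCNE1 missed the threshold (edgeR's glmTreat, adjusted p = 0.053). KCNMB4 (2.01) missed the threshold without mitoxantrone 3 (edgeR, adjusted p = 0.056) and on FPKM values (limma, adjusted p = 0.12 with a pseudocount of 0.1 and 0.10 with 1).

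The lower potassium genes were led in reads by KCNG1 and KCNH1. KCNH1 (ENSG00000143473), the ether-à-go-go channel often studied in tumour cells, had 158, 150.1 and 120.4 normalized counts with mitoxantrone and 671, 646 and 519.8 with DMSO. Its groups were 4.30-fold apart (log2 fold change -2.10 ± 0.12 SE; edgeR, adjusted p = 5.3e-20). KCNH1-IT1, within the same gene and on the same strand, was lower too, with 21 reads over the mitoxantrone libraries and 101 over the DMSO libraries. The pseudogene IPO8P1, also lower, overlaps KCNH1 on the same strand, and reads may be shared among them. KCNG1, an electrically silent subunit that modifies delayed rectifiers, averaged 234 ± 15.8 with mitoxantrone and 928 ± 105 with DMSO. KCNK5, a K2P background channel, had 13.3, 20.3 and 22.4 with mitoxantrone and 80.6, 75.2 and 75.9 with DMSO. KCNE4, a single-span auxiliary subunit, had 8.47, 13.5 and 12.2 with mitoxantrone and 60.02, 38.1 and 55.2 with DMSO. For each of these the groups were well apart.

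KCNT2, a sodium-activated channel, had 1 read over the mitoxantrone libraries and 35 over the DMSO libraries, a ratio, DMSO over mitoxantrone, of 27.7 (exact 95% interval 4.66 to 1125). Its close relative KCNT1 was higher. KCNMB3, another auxiliary subunit of the large-conductance channel, was lower at a log2 fold change of -1.14, overlaps the listed pseudogene LRRFIP1P1 (also lower), and missed the threshold when tested for a change beyond 2-fold (edgeR's glmTreat, adjusted p = 0.13), which 80.6% of all listed genes passed.

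**Figure D2:**
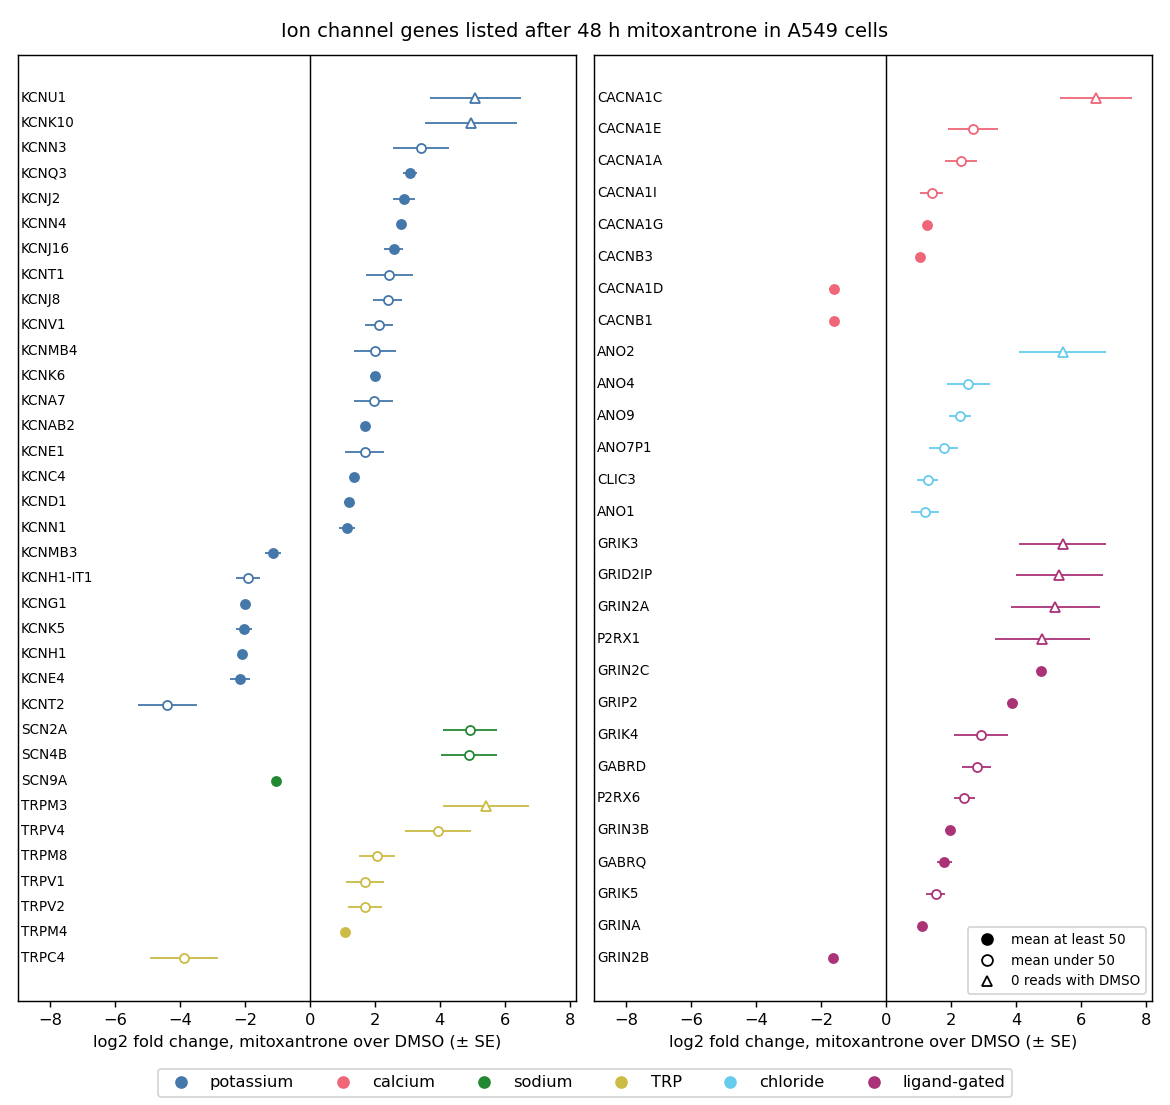
Log2 fold change, mitoxantrone over DMSO (edgeR, ± SE), of the ion channel genes reported by name, ordered within each family. Filled symbols have a mean of at least 50 normalized counts in the higher group, and triangles are genes with 0 reads in DMSO, whose fitted values depend on the small count the fit adds.

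Promoter sequences are shown for KCNN4 and KCNJ2, which were higher, and for KCNH1 and CACNB1, which were lower, chosen after their values were seen among genes with a single listed start. Each is the run of 250 bases before the start, 5′ to 3′ on the gene's strand, from RefSeq on GRCh38.p14. Capitals mark any of 6 motifs on either strand: the TATA box TATAAA, the CCAAT box, the GC box GGGCGG, the AP-1 motif TGANTCA, the E-box CACGTG and the p53 decamer consensus. Adjacent GC boxes may overlap.
KCNN4, chr19:43780974-43781223, minus strand: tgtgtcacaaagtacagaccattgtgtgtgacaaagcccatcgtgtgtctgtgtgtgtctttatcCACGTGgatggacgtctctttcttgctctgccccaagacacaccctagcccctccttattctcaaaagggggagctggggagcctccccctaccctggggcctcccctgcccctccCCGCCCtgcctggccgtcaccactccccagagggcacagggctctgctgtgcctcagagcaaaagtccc
KCNJ2, chr17:70169282-70169531, plus strand: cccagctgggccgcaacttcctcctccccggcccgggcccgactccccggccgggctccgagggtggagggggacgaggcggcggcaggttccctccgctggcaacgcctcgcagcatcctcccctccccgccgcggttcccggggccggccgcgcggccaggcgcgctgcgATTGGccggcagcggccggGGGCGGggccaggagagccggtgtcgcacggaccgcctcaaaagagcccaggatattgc
KCNH1, chr1:211134149-211134398, minus strand: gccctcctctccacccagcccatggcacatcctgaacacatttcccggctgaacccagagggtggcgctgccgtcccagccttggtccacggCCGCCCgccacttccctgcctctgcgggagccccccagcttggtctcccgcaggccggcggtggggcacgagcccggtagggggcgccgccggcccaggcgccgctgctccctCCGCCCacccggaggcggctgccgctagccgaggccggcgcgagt
CACNB1, chr17:39197670-39197919, minus strand: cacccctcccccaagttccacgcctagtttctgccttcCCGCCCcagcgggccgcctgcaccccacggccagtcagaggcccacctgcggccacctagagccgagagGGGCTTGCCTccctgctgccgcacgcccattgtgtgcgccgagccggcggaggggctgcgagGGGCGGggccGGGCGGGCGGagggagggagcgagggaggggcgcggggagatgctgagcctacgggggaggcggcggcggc
All 4 hold a GC box. KCNN4 also holds an E-box, KCNJ2 a CCAAT box in reverse and CACNB1 a p53 decamer. Promoter entries were found for 46 of the 66 genes, with 76 starts among them. A GC box was found in 50.0% of these windows and in 42.6% of all 35116 promoter windows, a CCAAT box in 30.3% and 32.0%, a TATA box in 6.58% and 10.7%, and an AP-1 motif in 6.58% and 6.57%. For the E-box the shares were 6.58% and 6.34%, and for the p53 decamer 9.21% and 5.57%. By gene the p53 decamer was found for 5 of 36 higher and 2 of 10 lower genes. A match describes letters only and is no evidence of binding.

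Calcium channel genes were 6 higher and 2 lower, and relatives moved in opposite directions. CACNA1G, the pore of a T-type channel that opens at low voltage, had 986, 912 and 889.6 normalized counts with mitoxantrone and 372, 387 and 398 with DMSO (2.41-fold; edgeR, adjusted p = 3.2e-17). Its T-type relative CACNA1I was also higher (log2 fold change 1.41), though not beyond 2-fold by the same threshold (edgeR's glmTreat, adjusted p = 0.052). CACNA1D, the pore of an L-type channel, had 96.8, 67.7 and 64.3 with mitoxantrone and 274, 209.9 and 203 with DMSO, and was 3.03-fold lower. The other L-type gene listed, CACNA1C, had 0 reads in every DMSO library and 9, 9 and 11 with mitoxantrone. With 3 reads over the DMSO group as the floor and the mitoxantrone reads taken as counted, it was at least 12.2-fold higher. Its span overlaps that of DCP1B, also listed as higher. CACNA1A, the P/Q-type pore, and CACNA1E, the R-type pore, averaged 19.2 and 8.08 counts with mitoxantrone and 3.75 and 1.15 with DMSO, and CACNA1E missed the threshold on FPKM values with a pseudocount of 1 (limma, adjusted p = 0.15).

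Beta subunits bring the calcium channel pore to the membrane and set its gating. CACNB3 had 644, 598 and 545 normalized counts with mitoxantrone and 294, 289.8 and 289 with DMSO. CACNB1 had 139, 114 and 153 with mitoxantrone and 425, 419.8 and 396 with DMSO. CACNB3 was thus 2.04-fold higher and CACNB1 3.05-fold lower (log2 fold change -1.61 ± 0.12 SE; edgeR, adjusted p = 3.7e-16). For a change beyond 2-fold CACNB3 missed the threshold (edgeR's glmTreat, adjusted p = 0.17).

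Sodium channel genes were 3 higher and 1 lower. SCN9A, a pore best known from pain-sensing neurons, had 539.5, 551 and 629 normalized counts with mitoxantrone and 1380.4, 1126 and 1030.2 with DMSO. It was 2.05-fold lower and missed the threshold for a change beyond 2-fold (edgeR's glmTreat, adjusted p = 0.15). SCN2A, a pore of brain neurons, and SCN4B, a beta subunit, had 34 and 33 reads over the mitoxantrone libraries and 1 read each over the DMSO libraries. The ratios were 43.0 (exact 95% interval 7.21 to 1746) and 41.7 (6.98 to 1696).

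TRP channel genes were 6 higher and 1 lower, nearly all at low counts. TRPM4, a calcium-activated channel for monovalent cations, had 804, 742 and 751 normalized counts with mitoxantrone and 348, 385 and 353 with DMSO (2.11-fold; edgeR, adjusted p = 1.4e-14). Beyond 2-fold it missed the threshold (edgeR's glmTreat, adjusted p = 0.079). TRPV1, the capsaicin receptor, TRPV2, TRPV4, an osmosensitive channel, and TRPM8, a cold sensor, were higher, with means of 6.40 to 12.9 counts with mitoxantrone and 0.286 to 3.84 with DMSO. A gene that the deposited table names SHPK, listed as higher, overlaps TRPV1 on the same strand. GENCODE 29 gives that gene's ID another name, and the gene it calls SHPK was not listed. TRPM3 had 3, 4 and 7 reads with mitoxantrone and 0 in every DMSO library, at least 5.90-fold higher, and missed the threshold on FPKM values (limma, adjusted p = 0.078 with a pseudocount of 0.1 and 0.29 with 1). TRPC4 had 1 read over the mitoxantrone libraries and 24 over the DMSO libraries, at a log2 fold change of -3.86, or -5.92 without mitoxantrone 1.

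All 6 chloride channel and anoctamin genes were higher, beside 58.9% of all listed genes, and none reached a mean of 50 counts. ANO9 averaged 41.8 ± 11.97 normalized counts with mitoxantrone and 8.43 ± 3.71 with DMSO. CLIC3, of the intracellular chloride channel family, averaged 31.4 ± 5.47 with mitoxantrone and 12.9 ± 2.65 with DMSO, and missed the threshold beyond 2-fold (edgeR's glmTreat, adjusted p = 0.082). ANO1, the calcium-activated chloride channel of epithelia, was low, with 11, 18 and 15 reads with mitoxantrone and 6, 9 and 9 with DMSO. Its adjusted p in edgeR was 0.0085, and it was 0.056 without mitoxantrone 2 and 0.14 for a change beyond 2-fold (glmTreat). ANO2, its close relative, had 2, 7 and 5 reads with mitoxantrone and 0 with DMSO in every library, at least 5.90-fold higher. ANO4 was also higher (log2 fold change 2.53), and the pseudogene ANO7P1 had 60 reads over the mitoxantrone libraries and 22 over the DMSO libraries.

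Among the 66 genes, the largest rise with ample reads was that of a single glutamate receptor gene, GRIN2C. GRIN2C (ENSG00000161509; chromosome 17, 72838162 to 72857627), a glutamate-binding subunit of NMDA receptors, had 669, 555 and 523 normalized counts with mitoxantrone and 15.4, 21.4 and 26.7 with DMSO. This was a 27.3-fold difference with no overlap (log2 fold change 4.77 ± 0.16 SE; edgeR, adjusted p = 1.1e-27). GRIN2B, the subunit typical of the developing brain, went the other way, with 195, 195 and 214 with mitoxantrone and 709, 654 and 526 with DMSO (3.12-fold lower). GRIN3B, a glycine-binding modulatory subunit, had 301, 259.6 and 254 with mitoxantrone and 70.3, 87.3 and 52.6 with DMSO, 3.88-fold higher. By GENCODE 29 its exons meet those of TMEM259 on the opposite strand, which was not listed. GRIN2A had 12 reads over the mitoxantrone libraries and 0 over the DMSO libraries, at least 5.05-fold higher, and also missed the threshold on FPKM values with a pseudocount of 1 (limma, adjusted p = 0.15). The obligatory subunit gene GRIN1 was not listed.

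The genes with the GRI prefix that encode no channel subunit were higher too. GRIP2, which binds AMPA receptors, had 399, 357 and 386 normalized counts with mitoxantrone and 19.7, 25.1 and 31.9 with DMSO, a 14.8-fold rise (edgeR, adjusted p = 9.0e-25). By GENCODE 29 the exons of GRIP2 meet those of SLC6A6 on the opposite strand, which was not listed. GRINA had 4309, 3792 and 3694 with mitoxantrone and 1749.9, 1926 and 1843 with DMSO, and its exons meet those of PARP10, on the opposite strand and also listed as higher. GRID2IP had 13 reads over the mitoxantrone libraries and 0 over the DMSO libraries.

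Kainate receptor genes were higher from few reads. GRIK5 averaged 42.7 ± 8.86 normalized counts with mitoxantrone and 14.7 ± 0.750 with DMSO. GRIK3 had 5, 2 and 7 reads with mitoxantrone and 0 in every DMSO library, at least 5.90-fold higher, and missed the threshold on FPKM values with a pseudocount of 1 (limma, adjusted p = 0.090). GRIK4 had 20 reads over the mitoxantrone libraries and 3 over the DMSO libraries, a ratio of 8.43 (exact 95% interval 2.499 to 44.3).

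GABA and ATP receptor genes were all higher where listed. GABRQ, the theta subunit of GABA-A receptors, had 100.4, 80.1 and 75.5 normalized counts with mitoxantrone and 19.7, 21.4 and 31.9 with DMSO, 3.47-fold higher. GABRD, the delta subunit, averaged 29.1 ± 5.10 with mitoxantrone and 4.05 ± 3.92 with DMSO. P2RX6, an ATP-gated channel subunit, averaged 42.7 ± 3.92 with mitoxantrone and 7.90 ± 1.21 with DMSO. P2RX1 had 9 reads over the mitoxantrone libraries and 0 over the DMSO libraries, at least 3.79-fold higher.

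**Figure D3:**
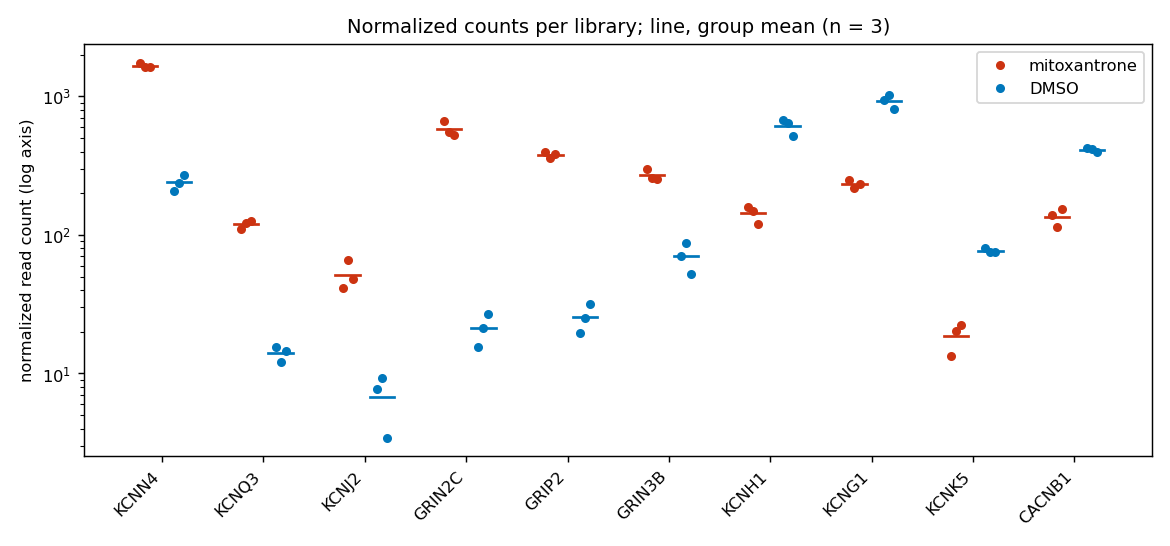
Normalized read count in each library (points) and group mean (line) for 10 ion channel genes, mitoxantrone left of DMSO, on a log axis. The mitoxantrone libraries lie above all DMSO libraries from KCNN4 to GRIN3B and below them from KCNH1 to CACNB1.

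In 3 pairs of related subunits, chosen after their values were seen, the balance of transcripts per length turned over or widened. GRIN2C over GRIN2B in FPKM was 11.1, 9.11 and 7.73 with mitoxantrone and 0.0714, 0.102 and 0.164 with DMSO. CACNB3 over CACNB1 was 4.60, 5.24 and 3.54 with mitoxantrone and 0.685, 0.684 and 0.726 with DMSO. In both pairs the more abundant member differed between the groups in all 6 libraries. CACNA1G over CACNA1D was 11.7, 15.3 and 16.0 with mitoxantrone and 1.56, 2.13 and 2.27 with DMSO, so CACNA1G was the higher in every library. These ratios are given as a description, with no test.

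**Figure D4:**
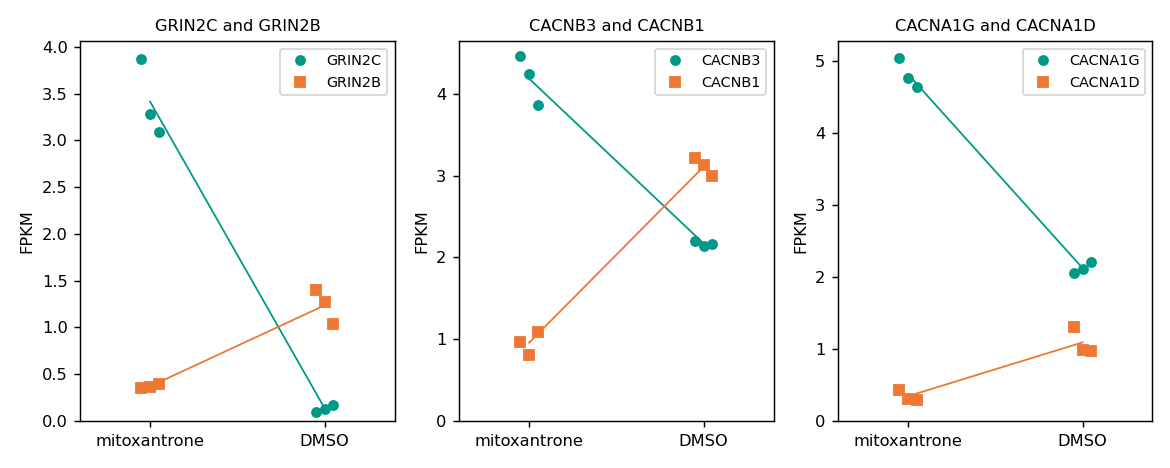
FPKM per library (points) of 3 pairs of related subunits, with lines joining the group means, mitoxantrone left of DMSO. The order within the pair differs between the groups for GRIN2C with GRIN2B and for CACNB3 with CACNB1, and CACNA1G stays above CACNA1D.

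A count of 0 reads in all 3 DMSO libraries was found for 10 of the 66 genes, or 15.2%, against 4.82% of all listed genes. They included KCNK10, KCNU1, CACNA1C, TRPM3, ANO2, GRIN2A, GRIK3, GRID2IP and P2RX1, with bounds from at least 3.79-fold to at least 12.2-fold higher with mitoxantrone. These bounds allow for counting error in the DMSO reads only. None of the 66 was at 0 in all mitoxantrone libraries, and only 28 of all 4546 listed genes were, so this is near the background. Channel genes are long in the genome. A span of over 100 kb was held by 27 of the 66, or 40.9%, against 16.7% of all listed genes. Among channel genes with a mean under 10 it was held by 16 of 26, or 61.5%, against 20.3% of all listed genes in that range. Besides KCNJ2 and KCNJ16, TRPV1 and P2RX1 (chromosome 17, 299.5 kb apart) and KCNA7 and TRPM4 (chromosome 19, 84.8 kb apart) lay within 500 kb. Both members of each pair were higher, as were 81.8% of the 66 genes. By the deposited annotation terms, 34 of the 66 genes were assigned to synaptic transmission, of 98 listed genes with that term.

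Markers of neurons, where many of these channels are best known, were listed in part. Of 8 neuronal markers 5 were listed, and their summed normalized counts were 2630 to 2857 with mitoxantrone and 925 to 976 with DMSO. NEFL, a neurofilament gene, averaged 1227 ± 38.8 with mitoxantrone and 259 ± 20.3 with DMSO, TUBB3 1250 ± 60.9 and 495 ± 30.4, RBFOX3 202 ± 21.2 and 85.7 ± 4.66, and MAP2 62.4 ± 9.16 and 25.2 ± 10.5. SYP, which encodes the synaptic vesicle protein synaptophysin, was lower, at 20.8 ± 7.17 with mitoxantrone and 92.0 ± 11.0 with DMSO. The part of these genes in the channel result was not tested. Of 11 lung epithelial markers 3 were listed, KRT8, KRT19 and CDH1, all higher, with sums of 139690 to 153710 with mitoxantrone and 59097 to 67895 with DMSO. None of 7 muscle markers was listed, while 3 of 8 leukocyte markers (CD8A, CD14 and ITGAX) and 2 of 4 endothelial markers (VWF and CDH5) were higher and 1 of 6 fibroblast markers (COL1A1) was lower. Summed counts were 252 to 258 with mitoxantrone and 41.8 to 56.9 with DMSO for the leukocyte markers, 13.5 to 19.4 and 0 to 2.59 for the endothelial markers, and 235 to 302 and 575 to 644 for COL1A1.

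Other genes of ion transport were taken from 4 lists. Of 167 genes 45 were listed, 39 higher and 6 lower, beside the 58.9% higher of all listed genes. Other channels were 18 higher and 3 lower of 70, pumps and exchangers 9 and 2 of 40, gap junction and water channels 10 and 1 of 31, and intracellular calcium release and store-operated entry 2 and 0 of 26. AQP11, an aquaporin of intracellular membranes, had 7.14-fold more normalized counts with mitoxantrone (235 ± 20.9, against 32.8 ± 8.29 with DMSO). ORAI3, a pore of store-operated calcium entry, rose 4.54-fold (646 ± 12.6 with mitoxantrone, 143 ± 13.0 with DMSO). TMEM63B, an osmosensitive cation channel, rose 3.78-fold, TPCN1, a lysosomal channel, 3.63-fold, the mechanosensitive channel gene PIEZO2 3.26-fold, PANX2 3.10-fold and the plasma membrane calcium pump gene ATP2B4 3.01-fold. CATSPER1, a sperm calcium channel, averaged 74.3 ± 10.5 with mitoxantrone and 14.4 ± 5.21 with DMSO. These 8 genes, the largest changes, were all higher. The 6 lower genes were BEST1, LRRC8C, LRRC8D, ATP2B1, SLC8A1 and GJC1. ATP2B1, another plasma membrane calcium pump gene, was 2.14-fold lower (1910 ± 192 with mitoxantrone, 4095 ± 270 with DMSO). The listed pumps and exchangers summed to 3952 to 4349 normalized counts with mitoxantrone and 4706 to 5186 with DMSO.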

How the data were processed

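Total RNA of 6 A549 libraries was sequenced as paired-end reads of 150 bases, per the labels' protocols, which do not say whether poly(A) selection or rRNA removal was used, whether strand was kept, or whether replicates were separate cultures. The spread behind each p-value is thus that of these samples alone and may be technical. Tools named in the submitters' processing notes were HISAT2 2.0.1, cutadapt 1.9.1, SAMtools 0.1.19, HTSeq 0.6.1, DESeq2 and Cufflinks 2.2.1. The genome build is not given in the sources used here.

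The deposited table holds raw read counts and FPKM values per library, per the file headers. The authors' deposited columns of mean normalized count (a signal of counts divided by size factors), log2 fold change with its error, a test score, and p-values complete it. Size factors and library totals were recovered from these columns (largest relative residual of the size factors 4.8e-10).

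Mitoxantrone was compared with DMSO on the raw counts in R 4.3.3 by the quasi-likelihood test of edgeR 4.0.16, with the recovered size factors, no covariate, no low-count filter, and Benjamini-Hochberg adjustment over 4546 genes. The authors' deposited log2 fold changes had the same sign in 66 of 66 channel genes. A group at 0 reads was set at a floor of 3 reads over the group. Intervals cover counting error only. The floor covers the counting error of the group at 0 alone, and a bound takes the reads of the other group as counted. Members and gene lists were chosen with earlier results of these data known. Values in every library are given for up to 8 genes of a family that averaged 50 normalized counts or more in the higher group, by absolute log2 fold change, and for the 5 largest changes of any count. Of the 66 genes, 3 enter the counts but are not reported by name here. Companion genes given with values are the 8 largest changes with such a mean, and ATP2B1 beside ATP2B4. The lower companion genes are named as well. Alternatives used TMM, library or column totals, DESeq2 1.42.0, a count filter, glmTreat, limma 3.58.1 on log2(FPKM + 0.1 or 1), a replicate block and single libraries left out. Overlaps were read from the deposited positions and GENCODE 29. Of the 65 channel genes found in GENCODE 29, 28 had exons that meet exons of another gene, for 5 of them a listed gene. Not all of these overlaps are named here.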

Additional observations from a re-analysis of the deposited data

How the results depend on the processing

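Counting channel subunits alone (50 higher, 11 lower) was an alternative chosen after seeing the data. The 66 channel genes gave 967 values over the alternatives, of which 0 reversed, 18 lost the threshold and 949 did neither. With at least 10 reads in at least 3 samples, 33 channel genes were higher and 10 lower of the 43 left, since the filter removes genes with few reads. That made 76.7% of channel calls higher, beside 52.4% of the calls over all listed genes. Against a 2-fold change 47 channel genes were higher and 10 lower. Of the channel calls 82.5% were then higher, beside 60.2% of the calls over all listed genes. Companion genes lower numbered 3 in place of 6. On FPKM values limma gave 52 channel genes higher with a pseudocount of 0.1 and 49 with 1. The share of calls that were higher was 81.2% and 80.3% for channel genes, and 58.4% and 57.5% for all listed genes. Leaving out 1 library gave 53 to 54 higher and 12 lower channel genes, 38 to 39 higher and 6 lower companion genes, while listed genes higher numbered 2631 to 2668 and listed genes lower 1855 to 1866. TMM moved the median of all listed genes by -0.26 log2 and changed no channel call. Libraries sharing a number showed no pairing, with correlations of their deviations of -0.07, -0.07 and 0.03 (2622 genes). With the replicate block 54 channel genes were higher and 12 lower. For genes with few reads depth is the limit, and fitted fold changes exceeded the authors' deposited ones by up to 3.33 log2 units.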
